A study of Drosophila melanogaster with 2 samples.

Results

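The 7 genes jing, sim, trh, tgo, btl, bnl and vvl regulate the tracheal system and the ventral midline of the Drosophila melanogaster embryo, and the binding of the CG2202 protein at them is described here. The genes were chosen by name with the peak positions, signals and replicate ranks of these lists already known, among them the wide rank difference of 1 jing peak, so the peaks are described and not tested. A peak was counted for a gene when its summit lay in the annotated gene body or within 5 kb of it, the window of that gene. These windows covered 294.5 kb and held 17 of the 3571 peaks of the optimal IDR (irreproducible discovery rate) list, 157 of the 30000 peaks of the pooled list, 181 of the 30000 peaks of replicate 1 and 114 of the 30000 peaks of replicate 2. The genes are 7 of the 17896 genes annotated on the 6 chromosome arms.

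Chromatin immunoprecipitation with sequencing (ChIP-seq) was performed with an antibody against green fluorescent protein (GFP). The chromatin came from whole embryos aged 0 to 12 h of 1 transgenic fly line, in which CG2202 carries GFP at its C-terminal end and the DNA was sheared by sonication. The study has 1 group of 2 biological replicates, both from that line, and no untagged or untreated group was analysed here. In whole embryos, binding in few cells and weak binding in many cells cannot be told apart, and no cell type can be assigned to a peak. Each peak has a signal set by the authors' peak caller, whose scale is particular to its list, so the replicates are compared by rank, where rank 1 is the strongest peak of a list. The lists of 30000 peaks run well past the caller's q-value threshold of 0.05, to weaker peaks with higher q-values. That threshold was passed by 13201 pooled peaks, 11103 peaks of replicate 1 and 12466 peaks of replicate 2. All IDR peaks are among those 13201. Read depth is not given in the sources used here.

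The tracheal system of the fly is a network of air tubes that forms from ectodermal placodes, and the midline is a row of glia and neurons that organises the ventral nerve cord. Each depends on a transcription factor of the basic helix-loop-helix PAS family, Trachealess (trh) in the trachea and Single-minded (sim) in the midline, and both bind DNA together with the common partner Tango (tgo). In the trachea, Trachealess and the POU-domain protein Ventral veins lacking (vvl) activate breathless (btl), which encodes a fibroblast growth factor (FGF) receptor, and its ligand Branchless (bnl) guides the growing tubes. Jing is a zinc finger protein, related to mammalian AEBP2, that is needed in both tissues.

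CG2202 peaks at these genes were mostly intronic and were unevenly divided among them. IDR peaks lay in the windows of 5 of the 7 genes, 11 at jing, 2 at trh, 2 at bnl, 1 at sim and 1 at tgo, while the FGF receptor gene btl and the POU factor gene vvl had none. Of all annotated genes 36.6% had an IDR summit in the same kind of window, and of the 2032 genes with a body of at least 10 kb, which jing, sim, trh and bnl are among, 55.2% did. IDR peaks were 10.8% of the pooled peaks in the 7 windows (95% interval 6.44 to 16.8%, exact binomial, covering the counting of peaks only), close to the 11.9% of the whole pooled list. An IDR summit lay within 500 bp of an annotated transcription start site (TSS) of its own gene, called a promoter here, at 2 of the 7 genes, jing and trh, against 12.1% of all genes, and both summits were at internal start sites. Introns of the member held 14 of the 17 IDR summits, 82.4% (56.6 to 96.2%, exact binomial), and 62.8% of the bases of the windows. Without jing, a setting added after seeing the data, the share was 66.7% of 6 IDR summits. Of all IDR summits 36.4% were in an intron of some gene and within 500 bp of no start site.

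The midline gene sim (FBgn0004666, chromosome arm 3R, 13057755 to 13078124 on the plus strand, dm6 coordinates) carried the IDR peak of highest signal among the 7 genes. Its summit lay in a first intron, 10.5 kb from the 5′ end of the gene and 4169 bp upstream of its nearest start site. The signal was 531.3 in the pooled list, rank 243, and the peak ranked 166 in replicate 1 and 447 in replicate 2, with summits within 4 bp of each other. The pooled list held 5 other summits at sim, all with signals between 27.3 and 104.1. The strongest of these was also intronic, 1760 bp downstream of the second start site, and ranked 2978 in replicate 1 and 9887 in replicate 2. No pooled summit lay within 500 bp of any of the 3 start sites of sim. The replicate lists held weak summits there, none with a q-value under 0.05. They ranked 13195 in replicate 1, and 21203 and 22841 in replicate 2.

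The sequence within 50 bp of the sim summit, chr3R:13068180-13068280 of dm6 on the plus strand, is shown because it was the only IDR summit of the 7 genes with the core word ACGTG, which the Sim:Tgo and Trh:Tgo pairs recognise. Capitals mark 3 words on either strand, GAGAG (a word of GAGA factor, here on the minus strand), TGCAAAT (part of the octamer of POU factors) and ACGTG (minus strand, at the right edge).
sim intron: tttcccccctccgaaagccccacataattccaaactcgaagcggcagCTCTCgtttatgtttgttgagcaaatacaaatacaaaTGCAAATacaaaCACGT
The ACGTG word ended at the last base of the window, so it was lost when 25 bp either side were read. Over all 3571 IDR summits ACGTG was found within 50 bp of 6.75%, TGCAAAT of 4.51% and GAGAG of 9.38%, and a match is a description of the letters, not a binding site.

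The tracheal gene trh (FBgn0262139, arm 3L, 366524 to 392633 on the minus strand) had 2 IDR peaks, 3335 bp apart. The stronger, with a signal of 356.6 and rank 588 in the pooled list, lay 334 bp upstream of the internal start site of trh, 15.0 kb from the 5′ end of the gene. Its rank was 1590 in replicate 1, against 319 in replicate 2. The weaker, with a signal of 154.9 and rank 2501, was 3669 bp upstream of the same start site, in a later intron of the long transcripts, and ranked 2520 in replicate 2 and 3101 in replicate 1. Both trh peaks therefore ranked higher in replicate 2, which no more than 2 of the 15 IDR peaks of the other genes did. Of those 15 peaks 11 were at jing. Of the 3519 IDR peaks found in both replicate lists only 46.7% ranked lower in replicate 2, so the direction at trh was the more common. The 5′ end of trh had a pooled summit within 500 bp, of signal 30.3 only, rank 25102.

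The sequences within 50 bp of the trh summits, on the plus strand of dm6, are shown for their base composition. The first is chr3L:377600-377700, with 23.8% GC, and the second is chr3L:380935-381035, with 29.7% GC. Neither held any of the 9 words searched, so no letters are in capitals.
trh promoter: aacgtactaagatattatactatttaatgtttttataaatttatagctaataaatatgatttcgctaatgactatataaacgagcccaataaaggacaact
trh intron: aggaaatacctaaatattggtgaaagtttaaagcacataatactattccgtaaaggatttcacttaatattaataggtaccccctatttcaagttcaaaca
The first was the lowest GC content of the 17 IDR summits of the 7 genes.

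The partner gene tgo (FBgn0264075, arm 3R, 9016773 to 9020022 on the minus strand) was counted for 1 IDR peak, but that peak lies at another gene. Its summit was 2419 bp beyond the 3′ end of tgo and 19 bp downstream of a start site of the neighbour Kcmf1. The signal was 129.1, the lowest of the 17 IDR peaks and rank 3242 in the pooled list, with rank 2238 in replicate 1 and 6736 in replicate 2. At tgo itself, the strongest pooled peak had its summit 1 bp from the annotated start site, with a signal of 106.6 and rank 4356. This promoter peak ranked 2542 in replicate 2 and overlapped no peak of replicate 1. It fell short of the IDR list, whose lowest signal was 120.9.

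The FGF ligand gene bnl (FBgn0014135, arm 3R, 19794073 to 19836817 on the minus strand) had 2 IDR peaks, both in its second intron. They had signals of 153.8 and 136.5, pooled ranks 2519 and 2955, and summits 1244 bp apart, 15.7 and 14.5 kb downstream of the single start site. The replicates ranked these almost alike, at 2506 in replicate 1 and 2677 in replicate 2 for the stronger, and at 3605 in replicate 1 and 3590 in replicate 2 for the weaker. The promoter of bnl had the pooled peak of highest signal in the 7 windows outside the IDR list, 108.9 at rank 4225, with its summit 82 bp upstream of the start site. There the replicates differed, with rank 2221 in replicate 1 and 10511 in replicate 2. Another intronic peak, 4.30 kb downstream of the start site, ranked 3488 in replicate 1 and overlapped no peak of replicate 2. A further one, 34.8 kb downstream and 655 bp upstream of tRNA:Thr-AGT-1-7, ranked 4837 in replicate 2 and overlapped no peak of replicate 1.

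The 2 intronic IDR summits of bnl, on which the replicates came close, are shown with its promoter summit, a site on which they differed. They lie at chr3R:19821072-19821172, chr3R:19822316-19822416 and chr3R:19836849-19836949, given on the plus strand of dm6 with 50 bp either side of the summit. Capitals mark the word ACGTG, the word GCGTG of the Spineless:Tango pair, and the word GAGAG, on either strand, all of them in the promoter sequence. GCGTG was within 50 bp of 7.39% of all IDR summits and of none of the 17 at the 7 genes.
bnl intron, stronger: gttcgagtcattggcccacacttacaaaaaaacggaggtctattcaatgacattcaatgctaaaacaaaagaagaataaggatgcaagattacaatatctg
bnl intron, weaker: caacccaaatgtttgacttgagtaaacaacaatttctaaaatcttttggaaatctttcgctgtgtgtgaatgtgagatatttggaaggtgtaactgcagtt
bnl promoter: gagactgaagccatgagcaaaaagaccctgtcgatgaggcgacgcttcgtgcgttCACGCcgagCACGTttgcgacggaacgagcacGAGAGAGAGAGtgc
GC content was 35.6% and 34.7% in the intronic sequences and 58.4% in the promoter sequence. The replicates also differed at the intronic summits 4.30 and 34.8 kb downstream of the start site. These are not shown and had 34.7% and 24.8% GC.

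The receptor gene btl and the POU factor gene vvl had no pooled peak above a signal of 87.3. The btl window (FBgn0285896, arm 3L, 14075772 to 14083229 on the plus strand) held 4 pooled summits, none of which passed the caller's q-value of 0.05. The strongest, with a signal of 42.1 and rank 16026, was in the downstream flank, 10.6 kb from the 5′ end, and the next, with 29.9 and rank 25522, was 2536 bp upstream of the nearest own start site. The nearest IDR summit was 25.7 kb from the gene body. The vvl window (FBgn0086680, arm 3L, 6790158 to 6794941 on the plus strand) held 8 pooled summits, 5 of which passed that q-value, 0.338 per kb against 0.270 per kb at jing. Their median signal was 50.5, where the medians of the other 6 genes lay between 29.6 and 45.7. The strongest, 7552 bp downstream of the start site in the downstream flank, had a signal of 87.3 and rank 5873, and it ranked 2693 in replicate 2 with no overlapping peak in replicate 1. The peak at the start site itself, 6 bp downstream of it, had a signal of 61.1 and rank 9578, and ranked 5542 in replicate 1 and 29625 in replicate 2. The nearest IDR summit to vvl was 22.2 kb from the gene body.

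**Figure D1:**
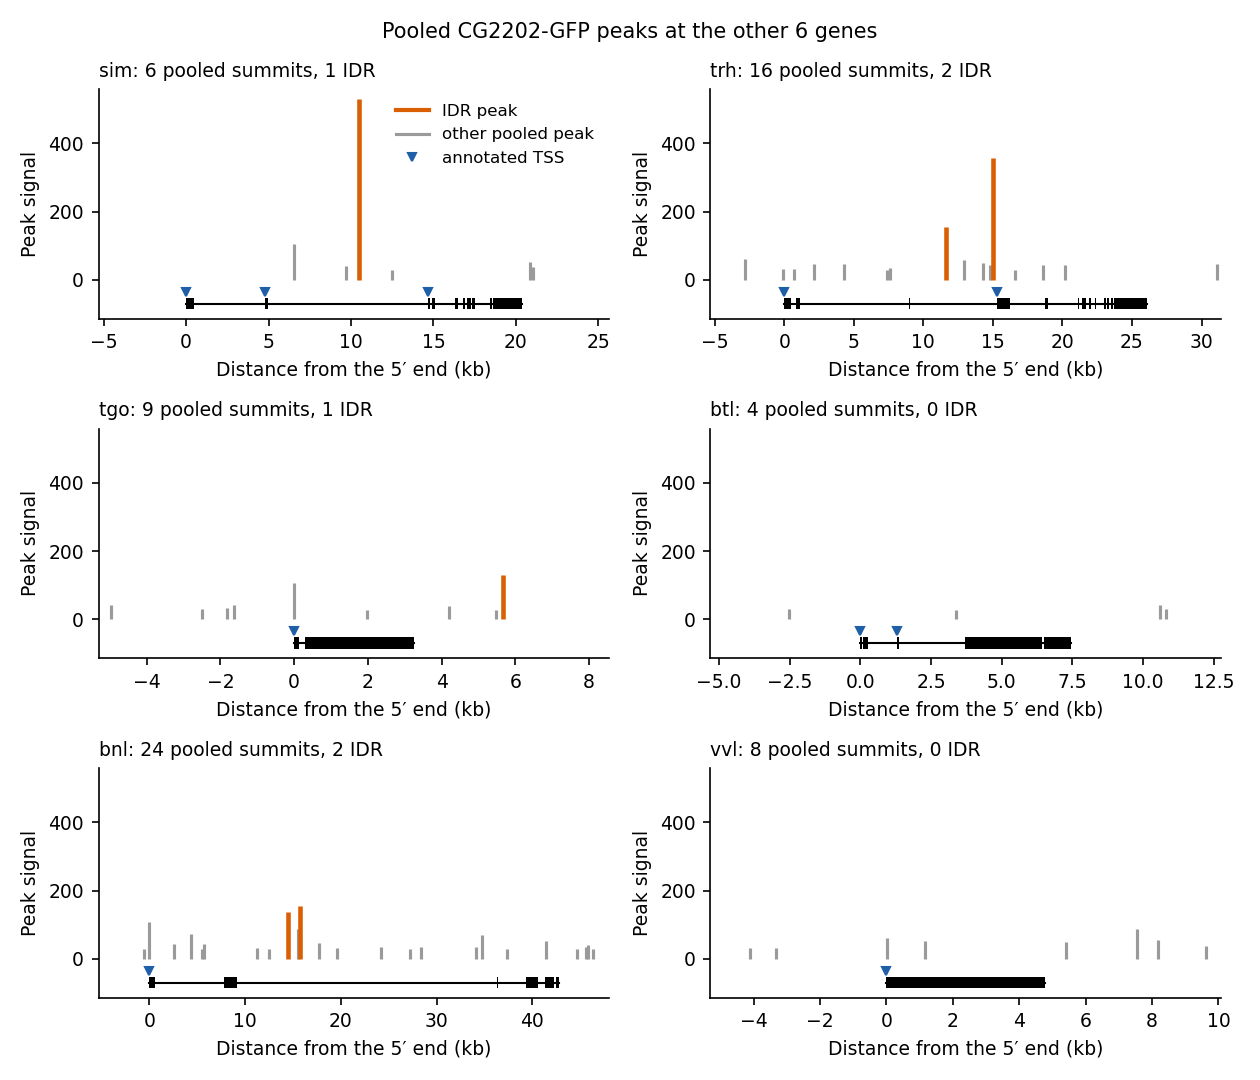
Signal of pooled CG2202-GFP peaks against distance from the 5′ end, in kb and in the direction of transcription, for sim, trh, tgo, btl, bnl and vvl, each with the gene body and 5 kb either side. Orange bars are IDR peaks, grey bars other pooled peaks, black boxes exons and blue triangles start sites; the tallest bar is the sim intron peak at 531.3, and no btl bar exceeds 42.1.

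The zinc finger gene jing (FBgn0086655, arm 2R, 6502006 to 6621792 on the plus strand) held 11 of the 17 IDR peaks and 90 of the 157 pooled peaks. Its body of 119.8 kb is mostly 1 long first intron, and introns were 84.1% of the bases of its window. By number of IDR summits in the window, jing ranked 4 among all annotated genes, with 3 genes above it and 4 others level with it. The 3 level genes of nearest window length were sbb, with 11 IDR summits in 89.1 kb, ush in 74.3 kb and shn in 68.3 kb, against 129.8 kb for jing. Per kb, jing had 0.0848 IDR summits, against 0.0267 over the 6 arms, and 12.8% of the genes of at least 10 kb had a higher density.

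The IDR peaks of jing were spread unevenly along the first intron, with none between 44.5 and 71.4 kb from the 5′ end. The strongest lay 104.0 kb from the 5′ end, with a signal of 520.9 and rank 254, the next at 10.5 kb, with 446.2 and rank 369, and another at 23.0 kb, with 327.5 and rank 684. Neighbouring IDR summits were 1614 to 26946 bp apart, with a median of 8250 bp. No IDR summit lay within 500 bp of the 5′ start site, where the strongest pooled peak had a signal of 64.6 and rank 8893. The 1 promoter peak, with a signal of 149.9 and rank 2611, was 52 bp downstream of the second start site, 108.5 kb into the gene, and 4 IDR summits lay between 93.3 and 105.6 kb, upstream of that site. Of the 90 pooled summits of jing 73 were in introns, 5 at promoters, 8 in other exons (3 in 3′ UTRs, 4 in coding exons and 1 in a 5′ UTR) and 4 in the flanks.

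The IDR peaks of jing ranked mostly lower in replicate 2. Of its 11 IDR peaks 10 ranked lower in replicate 2 than in replicate 1, where 46.7% of the 3519 IDR peaks found in both lists did so. The median absolute difference was 1265 over the 11 jing peaks, against 1109 over all IDR peaks found in both lists. In the other windows the absolute differences were 4498 at tgo, 1271 and 581 at trh, 281 at sim, and 171 and 15 at bnl. For the 3 strongest peaks of jing, replicate 1 gave ranks of 85, 158 and 380, whereas replicate 2 gave 981, 1108 and 1645. The largest rank differences (replicate 2 minus replicate 1) were 28526, 5553 and 5519. The peaks concerned lay 71.4, 73.1 and 101.2 kb from the 5′ end, with ranks of 771, 1341 and 1317 in replicate 1, while replicate 2 placed them at 29297, 6894 and 6836. The promoter peak was the exception, at rank 2427 in replicate 2 and 2791 in replicate 1. The median difference was 1265 over the 11 peaks (quartiles 923 and 4909), against -62 over all IDR peaks found in both lists (quartiles -1135 and 1080).

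The largest of these differences was the second largest of the whole IDR list, where 3.64% of the peaks found in both lists differed by more than 10000. It was the only one of that size among the 17 peaks, and it was known when jing was chosen. The replicate 2 summit lay 22 bp from the pooled summit, with a signal of 16.2 in a list whose lowest is 15.9. The difference of 5553 depended on the pairing. The replicate 1 peak of rank 1341 overlapped 2 peaks of replicate 2, one of rank 6894 with its summit 2 bp away and one of rank 3062, signal 73.3, with its summit 72.9 kb from the 5′ end. Paired with the stronger instead of the nearer, a setting added after seeing the data, the difference was 1721, and those of the other 16 IDR peaks were as before. Replicate 1 had its 2 strongest peaks of this stretch at 71.4 and 73.1 kb, with signals of 151.7 and 111.6.

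**Figure D2:**
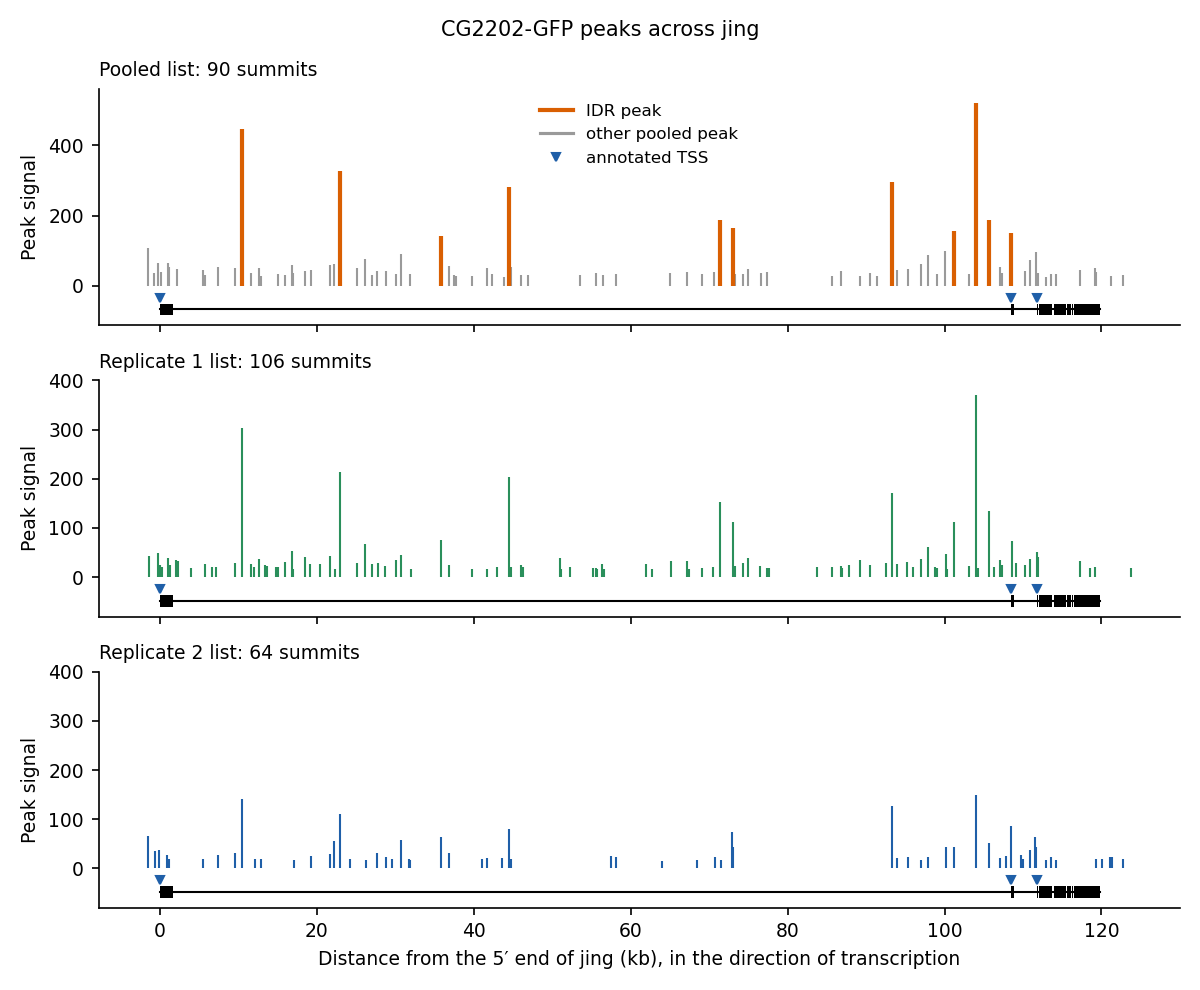
Peak signal across jing in the pooled list (top, IDR peaks in orange), replicate 1 (middle) and replicate 2 (bottom) against distance from the 5′ end in kb, with exons as black boxes and start sites as blue triangles. The highest bar lies at the same intronic position in both replicates, 104.0 kb from the 5′ end. It reaches 369.3 in replicate 1 and 149.1 in replicate 2, on signal scales that are particular to each list. The peak at 71.4 kb is near the floor of replicate 2.

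Over all 17 IDR peaks the median rank difference was 950, and 13 ranked lower in replicate 2. Without jing, a setting added after seeing the data, the median over the other 6 peaks was 78, so the shift rests on jing. At sim the difference was 281, at the tgo window 4498, at trh -1271 and -581, and at bnl 171 and -15. Absolute differences had a median of 1095 over the 17 peaks, against 1109 over all IDR peaks found in both lists.

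**Figure D3:**
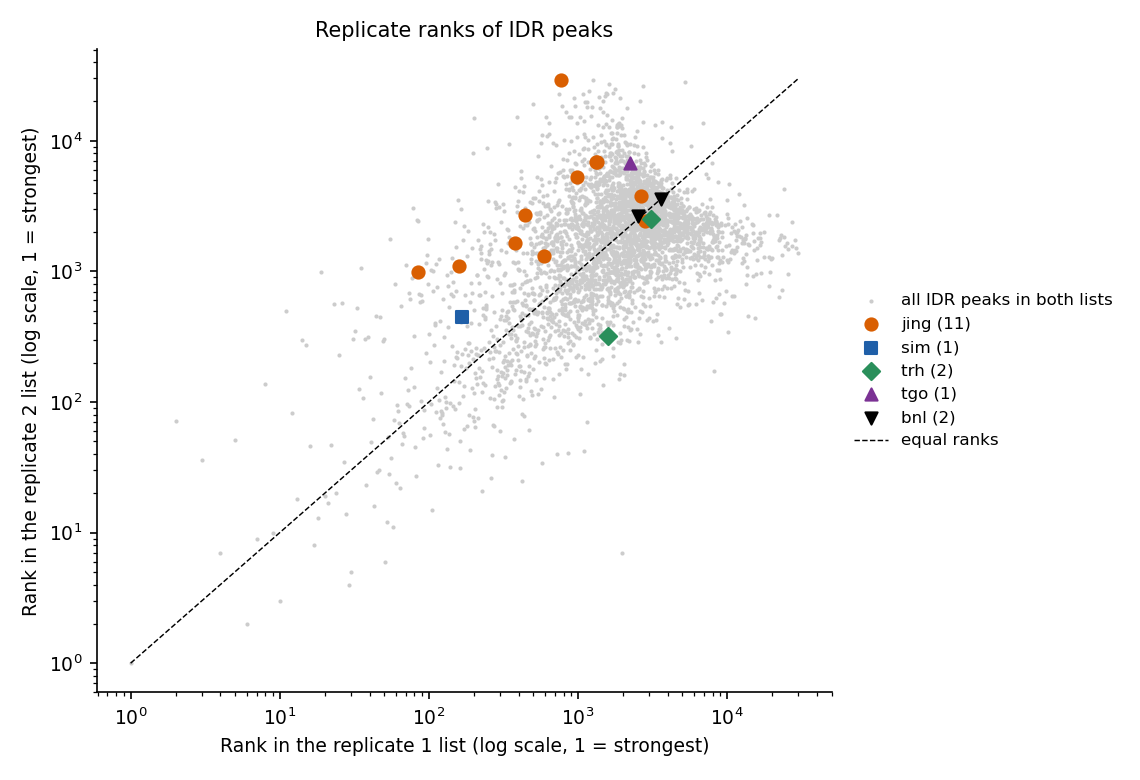
Rank of each IDR peak in the replicate 1 list (x axis) and the replicate 2 list (y axis), both on log scales with 1 the strongest, for the 17 peaks of the 7 genes in colour over all 3519 IDR peaks found in both lists in grey. Of the 11 jing peaks 10 sit above the dashed line of equal ranks, the 2 trh peaks sit below it, and the highest coloured point is the jing peak at ranks 771 and 29297.

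Replicate 1 also placed more of its list in these windows. It had 106 summits at jing, where replicate 2 had 64. The counts were 11 and 6 at sim, 20 and 12 at trh, 8 and 4 at tgo, 5 and 4 at btl, 21 and 17 at bnl, and 10 and 7 at vvl, replicate 1 first. All 7 genes thus had more summits of replicate 1, as did 32.4% of the genes of at least 10 kb and 31.0% of all genes. The difference of 42 summits at jing was larger than at any other annotated gene, the next being 39. Among the 27 genes with 100 or more summits in both lists together, a minimum chosen after seeing the data, 1 gene had a higher ratio of replicate 1 to replicate 2 than the 1.66 of jing, and the median ratio was 1.16.

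Restricted to stronger peaks, the counts differed less evenly between the genes. Among peaks with a q-value under 0.05 the 7 windows held 55 of replicate 1 and 40 of replicate 2. By gene these were 36 and 23 at jing, 4 and 3 at sim, 5 and 5 at trh, 2 and 2 at tgo, 1 and 0 at btl, 5 and 6 at bnl, and 2 and 1 at vvl. Among the 3571 strongest peaks of each list they held 20 and 13, with 12 and 7 at jing, 3 and 1 at bnl, 2 and 1 at sim, 2 and 2 at trh, 1 and 1 at tgo, and 0 and 1 at vvl. The density of jing was accordingly 0.0925 per kb with the strongest peaks of replicate 1 and 0.0539 with those of replicate 2. Mean GC content within 50 bp of the summits in the windows was 46.0% for replicate 1 and 41.5% for replicate 2, and over the whole lists it was 43.3% and 38.8%. The jing window had 44.1% GC and the 6 arms 42.1%, and the part of base composition in the counts was not tested.

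Of the 157 pooled peaks in the windows 85 overlapped a peak of both replicates, 44 a peak of replicate 1 only, 19 a peak of replicate 2 only, and 9 a peak of neither. At jing these numbers were 50, 26, 8 and 6.

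**Figure D4:**
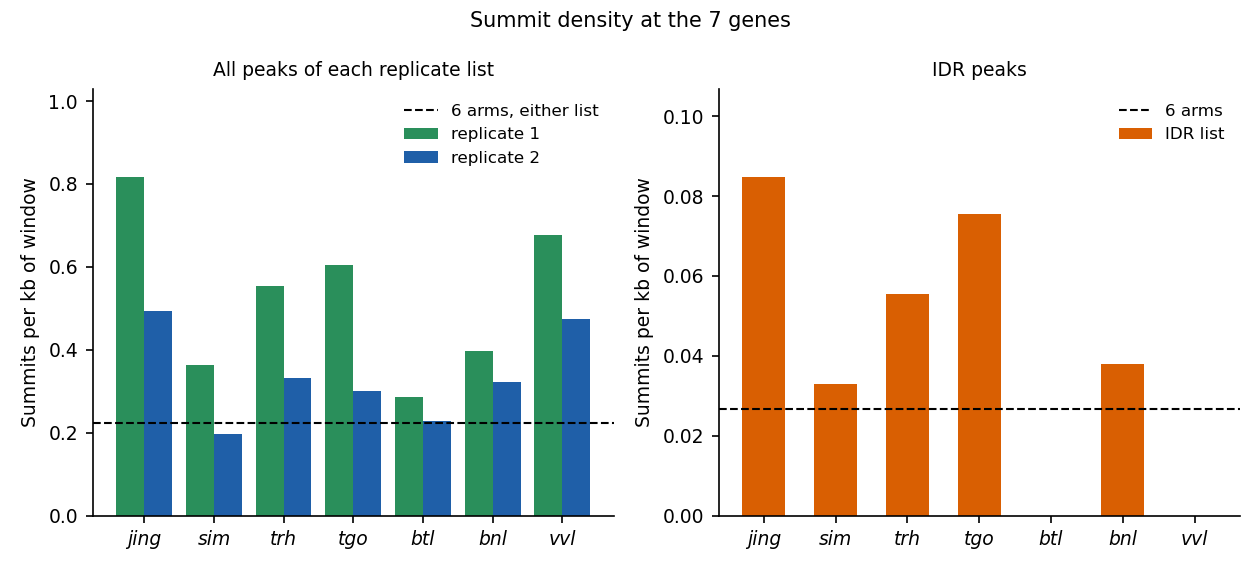
Summits per kb of window at each of the 7 genes, for all peaks of replicate 1 and replicate 2 (left) and for IDR peaks (right), with dashed lines at the mean of the 6 arms, 0.224 for either replicate list and 0.0267 for the IDR list. Replicate 1 is above replicate 2 at all 7 genes, jing has the highest bars at 0.817 and 0.493, and btl and vvl have no IDR peaks.

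Per kb of window, the 7 genes together held 0.0577 IDR summits and 0.533 pooled summits, against 0.0267 and 0.224 over the 6 arms. Without jing the IDR density was 0.0364, from 6 peaks in 164.7 kb. By IDR density the order was jing (0.0848), tgo (0.0755), trh (0.0554), bnl (0.0379) and sim (0.0329), and the values of tgo, trh, bnl and sim rest on 1 or 2 peaks each, so that order cannot be resolved. By pooled density the order was jing (0.693), tgo (0.679), vvl (0.541), bnl (0.455), trh (0.443), btl (0.229) and sim (0.198). The gene sim thus had the lowest pooled density and the strongest single peak. The density of tgo rests on 9 pooled summits, 4 in its upstream flank and 3 in its downstream flank. Several of these lay within 500 bp of start sites of other genes.

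The boundaries of the counts were as follows. Just inside the IDR list were the tgo window peak at 129.1, the weaker bnl intron peak at 136.5 and a jing intron peak at 140.9. Just outside were the bnl promoter at 108.9, a peak 1529 bp upstream of the 5′ start site of jing at 108.5, the tgo promoter at 106.6 and the second intronic peak of sim at 104.1. At the edge of the windows, a pooled peak of signal 46.3 lay 4990 bp from the trh body and was counted, and one of 101.7 lay 5189 bp from it and was not.

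The GC content of IDR summits varied among the genes. Mean GC content within 50 bp was 38.3% (SD 7.32, 17 summits), against 33.7% (SD 9.47, 3571 summits) for all IDR summits, a difference smaller than the spread among summits and not tested. It was 40.6% (SD 6.89) over the 11 jing summits, 26.7% over the 2 of trh and 35.1% over the 2 of bnl. Without jing the mean was 34.2%, close to that of all IDR summits. The 140 other pooled summits of the windows had 44.4% (SD 10.2).

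With 17 summits, shares of words could not be told apart from those of all IDR summits. ACGTG was within 50 bp of 1 of the 17 IDR summits, 5.88% (0.149 to 28.7%, exact binomial), against 6.75% of all IDR summits, and TGCAAAT of 1, against 4.51%, both at sim. GAGAG was found at 3, the sim peak, the strongest jing peak and the jing promoter peak, against 9.38% of all IDR summits. AGATAA, a word of GATA factors, was found at 2 jing summits, against 8.35% of all IDR summits. The word GCGTG, the E-box CACGTG that includes the core above, the Zelda word CAGGTAG, the DREF word TATCGATA and the M1BP word GGTCACAC were found at 0 of 17, which allows a share of up to 17.6% when 3 counts are taken as the limit of a count of 0. The shares of all IDR summits with these words were 7.39%, 0.728%, 0.504%, 1.15% and 0.952%, and among the other 140 pooled summits of the windows ACGTG was found at 7.14%.

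Genes that act with the 7 were bound in varied measure. The 4 lists used here were drawn from textbook knowledge, with earlier results of these data known. Of their 52 genes 35 had an IDR summit in the window and 15 at a promoter. These were 67.3% and 28.8%, beside the 36.6% and 12.1% of all genes. The median number of IDR summits was 1, against 0 over all genes. The listed genes were longer, with a median body of 14.4 kb against 1.68 kb for all genes. Of the genes of at least 10 kb 55.2% had an IDR summit in the window. In addition, 1 further gene of the lists could not be matched to the annotation by its symbol.

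Among 8 other genes of the PAS family and its cofactors, 5 had an IDR summit in the window. The share was 62.5%, beside 36.6% of all genes and 55.2% of those of at least 10 kb. The 5 genes were led by tai, which encodes a coactivator of the ecdysone receptor. It had 5 IDR summits, at least 1 of them at a promoter, with a highest signal of 306.6. The hypoxia factor gene sima, whose product also pairs with Tango, had 3, with a highest signal of 220.7, and the juvenile hormone receptor gene gce had 2, with 351.0. Named after their values were seen, the clock genes Clk and cyc had none, nor did ss, the gene of Spineless, and dysf, whose product also pairs with Tango, had 1, with a signal of 197.4.

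In the FGF pathway 9 of 14 genes (64.3%) had an IDR summit in the window, and 5 (35.7%) at a promoter. Over all genes those shares were 36.6% and 12.1%, and 55.2% of genes of at least 10 kb had a window summit. The 3 FGF pathway genes with most IDR summits encode intracellular members of the pathway. The Ets factor gene pnt had 11 IDR summits, the same number as jing, with a highest signal of 471.3, the kinase gene Raf had 10, with 586.8, and aop, the gene of the Ets repressor Yan, had 7, with 436.5. Promoter summits lay at htl, the FGF receptor gene of the mesoderm (highest signal 178.7), stumps, the gene of an adaptor of both FGF receptors (453.9), pnt, aop and Ras85D (139.9). The receptor gene htl thus had 1 IDR summit, at a promoter, where btl had none, and the ligand genes ths and pyr, named after their values were seen, had 1 and 0, where bnl had 2.

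Tracheal patterning and tube genes had an IDR summit in the window at 8 of 16 (50%) and at a promoter at 3 (18.8%). The promoter summits were at the Dpp receptor genes tkv (5 IDR summits in all, highest signal 444.4) and put (2, highest 210.7), and at pck, the gene of a claudin (1, at 202.3). The nuclear factor gene rib had 2, with a highest signal of 495.5. Midline genes had an IDR summit at 13 of 14 (92.9%) and at a promoter at 6 (42.9%). The promoter summits were at robo2, a gene of a Slit receptor (4 in all, highest 275.6), the axon guidance gene comm (1, 143.2), the glial gene wrapper (2, highest 146.2), and 3 genes of Egfr signalling, rho (1, 136.4), spi (3, highest 391.1) and aos (3, highest 766.2). The gene lola, a zinc finger gene of axon guidance, also had 3, with a highest signal of 229.2. Over all genes 36.6% had a window summit and 12.1% a promoter summit. Of genes of at least 10 kb 55.2% had a window summit. The median body was 11.7 kb in the tracheal list and 16.9 kb in the midline list.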

How the data were processed

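CG2202-GFP ChIP-seq peaks of 2 labelled biological replicates (1 group) were read from 4 deposited narrowPeak lists on dm6. According to the accompanying deposited text, peaks of either replicate were called on its alignment with a control, pooled peaks on both alignments with that control, and optimal IDR peaks were taken from the other 3 lists. Aligner, caller and IDR threshold: not given in the sources used here. The deposited signal and −log10 q-values are the authors' own, and depth is unknown. Genes on 6 arms, without pseudogenes and transposable elements, came from Ensembl release 115, and sequences from the RefSeq copy of the Release 6 genome.

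Peaks were ranked by signal within each list and matched between lists by an overlap of at least 1 bp, nearest summit first. Words were searched on both strands within 50 bp of a summit. Shares carry exact binomial 95% intervals, and no test was run. Members, lists and rules were chosen with earlier results of these data known. The text names all members, every IDR peak of a gene with up to 6, otherwise the 3 strongest and the 3 most different in rank, the 2 strongest pooled peaks of a gene with none, and of listed genes those with a promoter summit or most summits; others are named as chosen after their values were seen. Alternatives varied the flank, promoter width, peak list, matching and sequence width, with 2 added after seeing the data. Counting was tested on simulated data. The tools were Python 3.11.15 with matplotlib 3.10.9, scipy 1.17.1, pandas 2.3.3 and numpy 2.4.6.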

Additional observations from a re-analysis of the deposited data

How the results depend on the processing

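Of 85 values under other settings 68 stayed close and 17 moved. The median rank differences, the only results that could change sign, kept theirs. Close means within 1.5 times the reported count, density or rank difference, within 1 SD for GC content, and within the 95% interval for shares, which is wide with 17 peaks: ACGTG shares of 14.3% and 16.7% and an intron share of 66.7% count as close. With the 1000 strongest IDR peaks, 3 genes had a summit, the windows held 7 peaks (4.46% of pooled peaks), 1 gene had a promoter peak, and jing had 0.0385 per kb. With pooled peaks of q under 0.05, the windows held 57 peaks (36.3%), 5 genes had a promoter peak, jing had 0.270 per kb, and its median rank difference was 2067. With promoters of 250 bp, 1 gene had a promoter peak. With 25 bp either side, ACGTG was at 0% of summits. Without jing, added after seeing the data, 6 peaks and 1 promoter gene were left, with a median rank difference of 78.

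To leave out each replicate, the 3571 strongest peaks of the other replicate's own list were used in place of the IDR list. These gave 0.0539 to 0.0925 per kb at jing, 0 to 5% of summits with ACGTG and 13 to 20 peaks. They gave 5 to 6 genes with a peak and 3 genes with a promoter peak. Matching by reciprocal overlap, by summit within 200 bp and, added after seeing the data, by the strongest overlapping peak gave median differences of 923, 950 and 950. Flanks of 2 or 10 kb, or none, kept 16 or 17 peaks, the difference being the peak counted for tgo. No paired analysis was possible because there is 1 group. Depth is unknown, so peaks not listed in a replicate are not shown to be absent.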

Other observations

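Pooled peaks outside the IDR list were seen by 1 replicate far above the other at several further places. At jing, an intronic peak 22.2 kb from the 5′ end ranked 4704 in replicate 2 and 29891 in replicate 1, the direction opposite to that of most jing IDR peaks. At trh, an intronic peak 12.9 kb from the 5′ end ranked 5416 in replicate 1 and overlapped no peak of replicate 2, and one 20.2 kb from the 5′ end ranked 5569 in replicate 2 and overlapped none of replicate 1. Near the downstream edge of the trh window, a peak 62 bp downstream of a start site of CG1233 ranked 3861 in replicate 2 and 24764 in replicate 1. At vvl, a second peak of the downstream flank, 8187 bp from the start site, ranked 4926 in replicate 1 and overlapped none of replicate 2. These places were chosen after their values were seen.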
